A study of Mus musculus with 10 samples.

Results

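The lysosomal enzymes and membrane proteins described here are 37 genes that encode the hydrolases, membrane glycoproteins, channel and proton pump subunits of the lysosome, together with Tfeb, a transcription factor that acts on many of them. They were chosen by name among the genes of a 1-colour mouse expression array, and Cd68, a further lysosomal gene, was left out of the set. All 37 are on the array, out of 34607 gene names, with 47 probes on 56 spots. Of these, 31 were measured, meaning that at least 4 of the 10 scans had a probe of the gene well above background. No measured member passed the test between cells that received a miR-142-3p mimic and cells that received a scrambled RNA, and no member's mean differed by as much as 2-fold.

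The cells were C2C12, an established mouse myoblast line that can be brought to fuse into myotubes. They were transfected with 150 nM of a mimic of miR-142-3p, a microRNA best known from blood cells, or with 150 nM of a scrambled sequence, in medium with serum, and RNA was taken 72 hours later. About 60% of the cells took up RNA per the submitters' design text, so each array averages over cells with and without it, and fewer cells of a type and less RNA per cell cannot be told apart. The labels list 6 mimic and 4 scramble samples as separate transfections, and the titles of the scramble samples alone carry a remark on re-analysis, which nothing in the sources used here explains. By their headers the 10 scans come from a single slide with 5 array positions, and every position was read on 2 days. The 2 scans of a position were therefore averaged, leaving 3 arrays for the mimic and 2 for the scramble. This rests on the headers. Scans of 1 position correlated at r of 0.9903 or more and scans of different positions at up to 0.9920, so these ranges overlapped. The share of the 59305 gene spots that stood well above background ranged over the scans from 25.4% to 34.6%. The separate transfections of the labels do not match the 5 array positions of the headers, so the culture behind each array is not known. The spread behind the p-values is that of these 5 arrays and may be technical. The level of the mimic itself was not analysed here.

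Lysosomes are acid organelles in which proteases, glycosidases, sulfatases and lipases break down material brought in by endocytosis and autophagy. Most of these enzymes are tagged with mannose 6-phosphate in the Golgi and carried to the lysosome by receptors, while a proton pump, the V-ATPase, keeps its lumen acid. TFEB and its relatives bind an E-box with the core CACGTG, called the CLEAR element, near the start sites of many lysosomal genes. A microRNA of this size pairs with its targets mainly through its seed, bases 2 to 8 of the mature strand, which is the part of the transfected RNA that sets which transcripts it can bind. The mature strand of mouse miR-142a-3p, in RefSeq sequence on GRCm38.p6, is shown with the seed in capitals.
miR-142a-3p: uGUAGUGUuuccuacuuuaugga

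The members were chosen by name and not by this E-box. The element is known from lysosomal genes as a class, so its share among the members is a description and not an independent result. RefSeq promoter windows of 300 bases on GRCm38.p6, which span the start site and lie mostly upstream of it, were found for 32 of the 37 members. Asah1, Atp6v0d2, Atp6v1h, Ctsb and Ctsh had no entry. The 8-base motif GTCACGTG, which holds the core CACGTG, was searched on both strands. It was found in 10 of the 32 members (31.2%), in 14 of 91 other lysosome genes (15.4%) and in 2.55% of all 27025 genes with a window. Among the 8304 genes that were tested on the array and have a window the share was 5.05%. The core alone was in 11 of the 32 members (34.4%), in 23 of 91 other lysosome genes (25.3%) and in 8.09% of all genes with a window. Among the tested genes with a window it was in 11.9%. The members with the 8-base motif were Lamp1, Ctsa, Ctsd, Lgmn, Gla, Glb1, Naglu, Arsa, Mcoln1 and Atp6v0d1. A match describes these letters and shows no binding. The stretches around the motif are printed for 6 of these members, from the membrane proteins, proteases, glycosidases and the channel, to show how the same letters recur, with the 8 bases or their reverse complement in capitals and in the direction of the gene. The Lamp1 stretch at chr8:13159094-13159157 (plus strand) holds the core 4 times. Those of Ctsa at chr2:164833743-164833772 (plus), Ctsd at chr7:142387902-142387941 (minus), Gla at chrX:134601178-134601217 (minus), Naglu at chr11:101070003-101070042 (plus) and Mcoln1 at chr8:3500458-3500497 (plus) hold it once.
Lamp1: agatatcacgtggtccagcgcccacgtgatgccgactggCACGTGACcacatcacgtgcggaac
Ctsa: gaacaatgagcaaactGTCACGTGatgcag
Ctsd: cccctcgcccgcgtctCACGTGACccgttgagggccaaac
Gla: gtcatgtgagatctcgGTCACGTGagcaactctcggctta
Naglu: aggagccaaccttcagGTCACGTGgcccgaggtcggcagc
Mcoln1: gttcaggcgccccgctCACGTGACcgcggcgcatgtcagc

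The expression of each member was read with probes of 60 bases. Probes are printed for 4 of the 12 members whose arrays did not overlap between the groups: Scarb2, Lgmn, Naglu and Man2b1. They let a reader see which bases gave the values. In the mm9 coordinates of the files they lie at chr5:92877611-92878944, chr12:103632415-103632474, chr11:100938631-100938690 and chr8:87621348-87621407, the first 2 on the minus and the others on the plus strand. The Scarb2 probe spans 1334 bases of the genome, so its 60 bases are not contiguous there. Each of the 4 was also chosen because it reads without a stop codon in at least 1 frame, so that trait is not a result. No annotation of mm9 was used, so exons are not named.
Scarb2: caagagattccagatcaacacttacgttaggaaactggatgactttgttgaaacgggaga
Lgmn: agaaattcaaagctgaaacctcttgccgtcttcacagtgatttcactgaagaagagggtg
Naglu: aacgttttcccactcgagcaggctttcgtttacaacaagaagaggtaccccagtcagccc
Man2b1: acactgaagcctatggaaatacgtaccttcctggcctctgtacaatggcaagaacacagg

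The question put to these arrays is how the transcripts of myoblasts change with added miR-142-3p. Signals are given as log2 of the processed spot signal relative to the 75th percentile of the scan, so that 0 is that percentile and 1 unit is a factor of 2. Differences are mimic minus scramble on the same scale. They were tested with limma over 13677 genes, with Benjamini-Hochberg adjustment and a threshold of 0.05. None of the 31 measured members was called (limma), while 9.74% of all genes tested were called, 5.86% higher and 3.88% lower. Before adjustment 3 members (Lipa, Ctsb and Neu1) had a p below 0.05 (limma), which is 9.68% of those measured against 25.3% of all genes tested. The median difference of the members was 0.07, against 0.09 over all genes tested, with 17 members above 0 and 14 below. The single differences lay between −0.44 (Scarb2) and 0.70 (Lipa). In size their median was 0.30, against 0.32 over all genes tested.

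**Figure D1:**
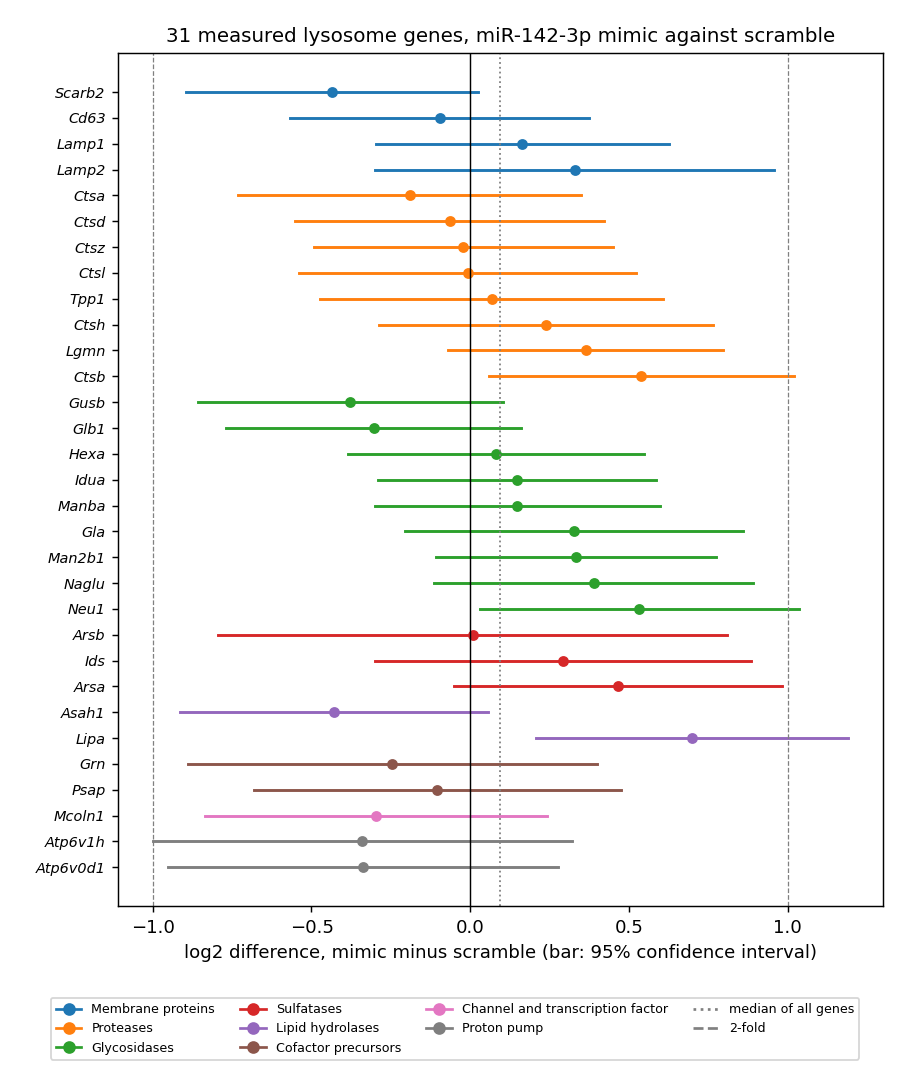
Log2 difference, mimic minus scramble, of the 31 measured lysosome genes by role, with the point at the fitted difference and the bar its 95% confidence interval (3 mimic and 2 scramble arrays). The dashed lines mark 2-fold, the dotted line the median of all genes, and the intervals of Lipa, Ctsb and Neu1 lie above 0 and reach past 2-fold.

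The intervals say how large a difference the arrays leave possible. For 28 of 31 members the 95% interval of the difference lay within 2-fold in both directions and included 0. The other members were Lipa, Ctsb and Neu1, whose intervals lay above 0 and reached past 2-fold. The standard errors of the members were between 0.19 and 0.35. The smallest difference called among all genes was 1.67-fold, and the largest of a member was 1.62-fold, so a difference of the size seen in the members was below anything called in this design. Of the 31 members, 30 were well above background on all 10 scans, and the other was Arsb, on 7.

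**Figure D2:**
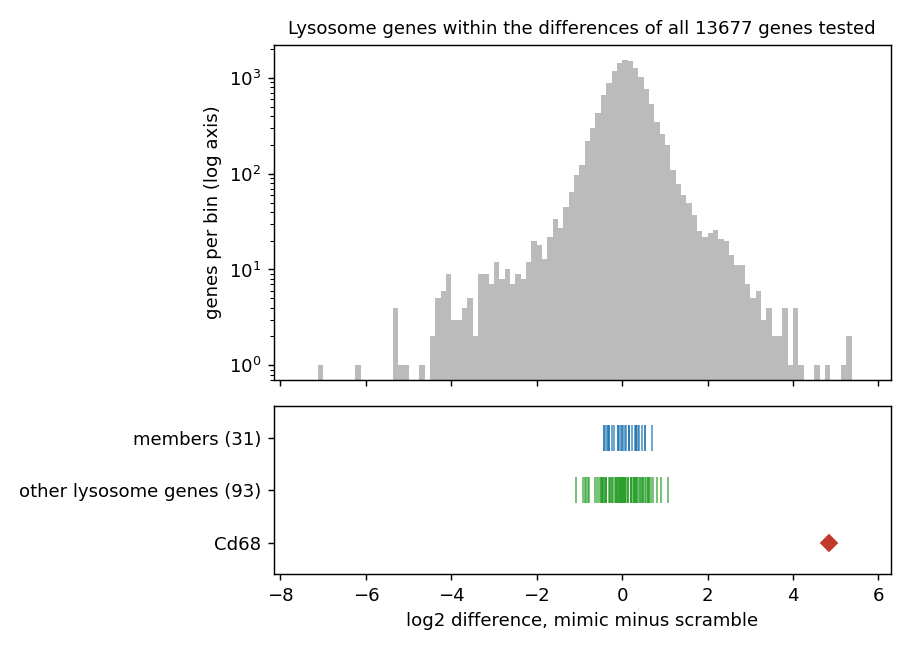
Upper panel, number of genes per bin of log2 difference (mimic minus scramble) for all 13677 genes tested, on a log axis. Lower panel, the same difference for the 31 measured members, the 93 other measured lysosome genes and Cd68, where each tick is 1 gene and the diamond is Cd68. The members lie between −0.44 and 0.70, and Cd68 lies at 4.83.

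The lysosomal membrane proteins were all measured, and none was called. Lamp1, a major glycoprotein of the lysosomal membrane, had signals of 7.24, 7.56 and 7.42 on the mimic arrays and 7.24 and 7.24 on the scramble arrays. The scramble arrays gave the same value and lay among the mimic values. Lamp2, which also serves chaperone-mediated autophagy through one of its isoforms, had signals of 6.09, 6.27 and 6.07 on the mimic arrays and 6.24 and 5.38 on the scramble arrays. Scramble array 2 alone stood apart from the other 4 arrays for this probe. The Lamp2 difference was 0.33 ± 0.27 (SE), and it was 0.76 without scramble array 1, where it was called (limma, adjusted p = 0.0362), and −0.10 without scramble array 2. A second Lamp2 probe, assigned to another RefSeq transcript of the gene, read 3.32, 3.22 and 3.09 on the mimic arrays and 3.19 and 3.31 on the scramble arrays, with a difference of −0.04. The tetraspanin Cd63 had a difference of −0.10 ± 0.21 (SE, interval −0.57 to 0.38), and its groups overlapped. It was 0.02 without scramble array 2. Scarb2, the receptor that carries beta-glucocerebrosidase to the lysosome, had signals of 1.27, 1.47 and 1.39 on the mimic arrays and 1.68 and 1.94 on the scramble arrays. All 3 mimic values were below both scramble values. Its difference of −0.44 ± 0.20 (SE, adjusted p = 0.219, limma) was the lowest of the set and did not pass.

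Of the 11 proteases, 8 were measured. Cathepsin B (Ctsb), a cysteine protease, had signals of 7.36, 7.47 and 7.56 on the mimic arrays and 7.11 and 6.74 on the scramble arrays. The mimic arrays were all above the scramble arrays, by 0.54 ± 0.21 (SE, adjusted p = 0.156, limma), with 0.59 on the first and 0.49 on the second scan day. Without scramble array 1 the difference was 0.72 and was called (limma, adjusted p = 0.0408), and without scramble array 2 it was 0.35, so the size depended on the scramble array used. Legumain (Lgmn), which cleaves after asparagine and matures cathepsins, had signals of 5.07, 5.12 and 5.17 on the mimic arrays and 4.73 and 4.79 on the scramble arrays. Its groups did not overlap and the arrays of each lay close together, with a difference of 0.36 ± 0.19 (SE, adjusted p = 0.271, limma). The probe of this gene is the one printed above.

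The other 6 measured proteases had overlapping groups and differences between −0.19 and 0.24, and each of the 6 changed sign in 1 or more of the other settings. Cathepsin L (Ctsl) had 6.90 ± 0.28 (SD, n = 3) against 6.90 ± 0.17 (SD, n = 2), mimic against scramble. The aspartic protease cathepsin D (Ctsd) had 5.51 ± 0.10 (SD, n = 3) against 5.57 ± 0.28 (SD, n = 2). A second Ctsd probe had a difference of −0.47, in which scramble array 2 at 3.47 stood above the other 4 arrays. The carboxypeptidase cathepsin Z (Ctsz) had a difference of −0.02 (interval −0.49 to 0.45). The protective protein cathepsin A (Ctsa), which stabilises beta-galactosidase and neuraminidase, had −0.19 (interval −0.73 to 0.35). The aminopeptidase cathepsin H (Ctsh) had 0.24 (interval −0.29 to 0.76), and the tripeptidyl peptidase Tpp1 had 0.07 (interval −0.47 to 0.61). The remaining proteases were not measured. No scan had Ctsk, the collagen-degrading cathepsin of osteoclasts, or Ctss, a cathepsin of antigen-presenting cells, well above background. Of the 2 probes of Ctsc, a dipeptidyl peptidase that activates granule proteases, 1 was above it on a single mimic scan and the other on none.

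**Figure D3:**
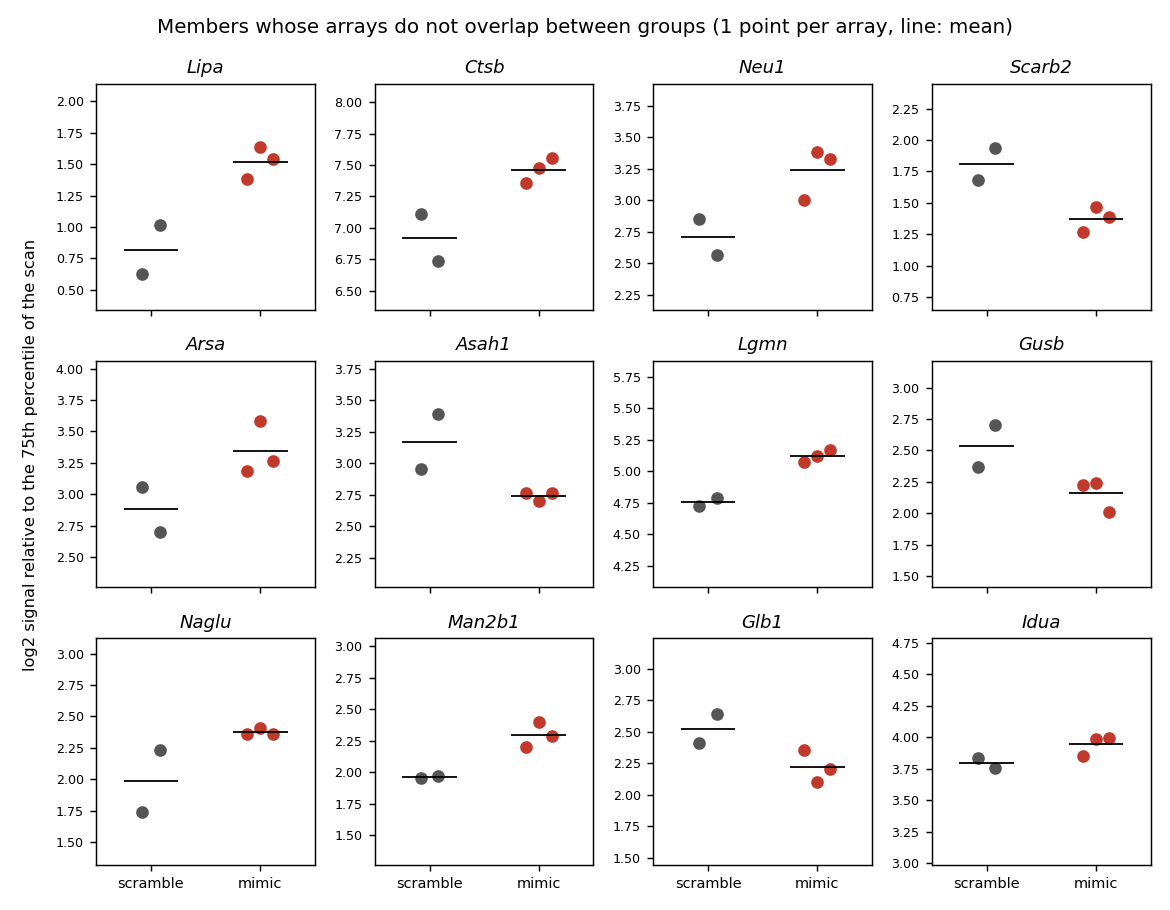
Log2 signal relative to the 75th percentile of the scan on each of the 2 scramble and 3 mimic arrays, for the 12 members whose arrays do not overlap between the groups; each point is 1 array (mean of 2 scans), the line is the group mean, and every panel spans the same range. Lipa, Ctsb, Neu1, Arsa, Lgmn, Naglu, Man2b1 and Idua are higher and Scarb2, Asah1, Gusb and Glb1 lower on the mimic arrays; none of the 12 passed the test.

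Of the 10 glycosidases, 9 were measured, 7 with a difference above 0 and 2 below, and none was called. Of these signs only that of Hexa turned in other settings, in 4 of 18. Neuraminidase 1 (Neu1), which removes sialic acid, had signals of 3.01, 3.39 and 3.33 on the mimic arrays and 2.85 and 2.56 on the scramble arrays. The groups did not overlap, with a difference of 0.53 ± 0.22 (SE, adjusted p = 0.175, limma). Alpha-N-acetylglucosaminidase (Naglu), an enzyme of heparan sulfate breakdown, had signals of 2.36, 2.41 and 2.36 on the mimic arrays and 1.74 and 2.24 on the scramble arrays. The mimic arrays lay within a narrow range, and scramble array 1 was lower than scramble array 2 by more than the difference between the groups, which was 0.39 ± 0.22 (SE, adjusted p = 0.307, limma). It was 0.14 without scramble array 1 and 0.64 without scramble array 2. The alpha-mannosidase Man2b1 had signals of 2.20, 2.40 and 2.29 on the mimic arrays and 1.95 and 1.97 on the scramble arrays. Both groups were tight and separate, and the difference was 0.33 ± 0.19 (SE, adjusted p = 0.319, limma).

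Beta-glucuronidase (Gusb) was printed on 10 spots per array, and the spots left after outlier removal, at least 9, gave its error within a scan. Their SD was between 0.05 and 0.20 on the log2 scale. The signals were 2.23, 2.24 and 2.01 on the mimic arrays and 2.37 and 2.70 on the scramble arrays, so that both groups separated, and the 2 scramble arrays differed by 0.33. The difference of −0.38 ± 0.21 (SE, adjusted p = 0.302, limma) did not pass. It was −0.21 without scramble array 2 and −0.75 with the deposited series matrix values, the ends of its range over the 18 other settings. A second probe gave −0.23. Beta-galactosidase (Glb1) had signals of 2.36, 2.10 and 2.20 on the mimic arrays and 2.41 and 2.64 on the scramble arrays. Its mimic arrays were all below the scramble arrays, with a difference of −0.30 ± 0.20 (SE, adjusted p = 0.386, limma) that was −0.19 without scramble array 2. Over the 18 other settings the Glb1 difference lay between −0.44 and −0.19. The alpha-galactosidase Gla, whose loss causes Fabry disease in humans, had signals of 6.27, 6.75 and 6.84 on the mimic arrays and 6.31 and 6.28 on the scramble arrays. Mimic array 1 lay below both scramble arrays, and the difference of 0.33 ± 0.23 (SE) was 0.50 without it and 0.22 without mimic array 3.

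Alpha-iduronidase (Idua), which acts on dermatan and heparan sulfate, had signals of 3.85, 3.99 and 4.00 on the mimic arrays and 3.84 and 3.76 on the scramble arrays with the brighter of its probes. The groups did not overlap, by a margin smaller than the spread within either, and the difference was 0.15 ± 0.19 (SE). Its other probe, well above background on 9 of 10 scans, gave 0.83 and scramble arrays at 0.23 and −0.81, so the 2 probes differed in size though not in sign. The beta-mannosidase Manba had 0.15 (interval −0.30 to 0.60), and hexosaminidase A (Hexa), the enzyme lost in Tay-Sachs disease, had 0.08 (interval −0.39 to 0.55). The groups overlapped for both. Galactosylceramidase (Galc), the enzyme of myelin lipid breakdown, gave no scan well above background.

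The 3 sulfatases were measured. Arylsulfatase A (Arsa), which acts on sulfatides, had signals of 3.19, 3.59 and 3.27 on the mimic arrays and 3.06 and 2.70 on the scramble arrays. The groups were separate by a small margin, with a difference of 0.47 ± 0.23 (SE, adjusted p = 0.239, limma), which was 0.28 without scramble array 2. Over the 18 other settings the Arsa difference lay between 0.24 and 0.65. Iduronate sulfatase (Ids), which starts the breakdown of the same sulfated sugars as Idua, had signals of 0.64, 1.02 and 0.67 on the mimic arrays and 0.82 and 0.15 on the scramble arrays. Scramble array 2 alone stood apart, and the difference of 0.29 (interval −0.30 to 0.88) was −0.04 without it. Arylsulfatase B (Arsb) was the dimmest measured member, well above background on 5 of 6 mimic and 2 of 4 scramble scans, with scramble arrays at −1.59 and −0.32 and a difference of 0.01 ± 0.35 (SE), the widest error of the set. Without scramble array 1 its difference was −0.63, so that a single dim array set its sign.

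The lipid hydrolases had differences of opposite sign, and neither passed the test. Lysosomal acid lipase (Lipa), which hydrolyses cholesteryl esters and triglycerides taken up by the cell, had signals of 1.38, 1.63 and 1.54 on the mimic arrays and 0.63 and 1.02 on the scramble arrays. All mimic values were above both scramble values. Its mean was 1.52 ± 0.13 (SD, n = 3) against 0.82 ± 0.28 (SD, n = 2), the largest difference of the set at 0.70 ± 0.21 (SE, 1.62-fold, interval 0.21 to 1.19). The unadjusted p of 0.0110 became 0.0824 after adjustment over all genes (limma), and Lipa ranked 1834 by p among the 13677 genes. The difference was 0.84 on the first and 0.56 on the second scan day. Its probe lies on chromosome 19, 34567717 to 34567776 in mm9. Acid ceramidase (Asah1), which splits ceramide into sphingosine and fatty acid, had signals of 2.76, 2.70 and 2.76 on the mimic arrays and 2.95 and 3.39 on the scramble arrays. The mimic arrays lay together below both scramble arrays, and the difference was −0.43 ± 0.21 (SE, adjusted p = 0.248, limma). It was −0.65 without scramble array 1 and −0.21 without scramble array 2. A second Asah1 probe gave −0.48.

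The remaining members serve the enzymes or the acid lumen, and all of those measured had fitted differences below 0 and overlapping groups. Prosaposin (Psap), the precursor of the saposins that present sphingolipids to their hydrolases, had 5.07 ± 0.02 (SD, n = 3) against 5.17 ± 0.53 (SD, n = 2). Granulin (Grn), the gene of progranulin, had 4.19 ± 0.16 (SD, n = 3) against 4.44 ± 0.62 (SD, n = 2). In both, scramble array 2 stood above all other arrays, at 5.55 and 4.87, and without it the differences were 0.27 and 0.19. The cation channel Mcoln1, which releases calcium from the lysosome, had signals of 3.30, 3.89 and 3.52 on the mimic arrays and 3.76 and 3.98 on the scramble arrays. Mimic array 2 lay between the scramble arrays and the other mimic arrays below them, with a difference of −0.30 ± 0.24 (SE, interval −0.84 to 0.24) that ranged from −0.46 without mimic array 2 to −0.16 without mimic array 1. Of the proton pump subunits, Atp6v0d1, part of the membrane sector, had signals of 3.70, 4.06 and 3.69 on the mimic arrays and 3.78 and 4.53 on the scramble arrays. Its difference of −0.34 ± 0.27 (SE) was 0.03 without scramble array 2, which stood above the rest. Atp6v1h, a subunit of the cytosolic sector, had 0.81 ± 0.46 (SD, n = 3) against 1.15 ± 0.20 (SD, n = 2). Mimic array 2 alone was low there, at 0.27, and the difference of −0.34 ± 0.29 (SE) was −0.07 without it and −0.20 without scramble array 2. Atp6v0d2, the form of the d subunit known from osteoclasts and macrophages, and Tfeb were never well above background, so no difference is given for them. Without a filter on dim probes all 37 members could be fitted, and none was called (limma), against 1.18% of 34607 genes; 1 member had an unadjusted p below 0.05 (limma; 2.70%, against 8.45%).

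All 10 members with the 8-base motif in their promoter window were measured. They had a median difference of 0.05, with 5 above and 5 below 0 and a range of −0.34 to 0.47. The 17 measured members whose window lacks it had a median of 0.07 and a range of −0.44 to 0.70. The difference between these medians was not tested.

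The gap between the 2 scramble arrays was close in size to the differences between the groups. It was larger than the difference for 17 of 31 members, and the share over all genes was not computed. The median gap of the members was 0.29, beside a median size of difference of 0.30. Over all genes tested these medians were 0.38 and 0.32. Scramble array 1 was the higher of the pair for 11 of 31 members and for 59.3% of all genes tested. The mimic arrays had a median SD of 0.13 over the members and 0.18 over all genes. Arrays of the groups did not overlap for 12 of 31 members (38.7%), against 42.6% of all genes tested. The difference had the same sign on both scan days for 25 of 31 members, and the days differed by at most 0.41 for a member. Both days read the same arrays, so this describes the scanning and not a repeat of the experiment. The share of all genes with the same sign on both days was not computed.

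The number of calls depended on whether the 2 scans of a position counted once. Fitted to the 10 labelled samples, 9 of 31 members (29.0%) were called (limma), and so were 30.4% of all genes tested. The 6 higher were Lipa, Ctsb, Neu1, Arsa, Lgmn and Man2b1, and the 3 lower were Scarb2, Asah1 and Gusb. Their fitted differences were those given above, since only the error changed. With the array as a random block and the scan date as a block, which allows for the shared positions, none was called, against 13.1% of all genes tested. In that fit 5 members had an unadjusted p below 0.05 (limma; 16.1%, against 27.4% of all genes). Without scramble array 1, 2 members (Ctsb and Lamp2) were called, against 26.9% of all genes.

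**Figure D4:**
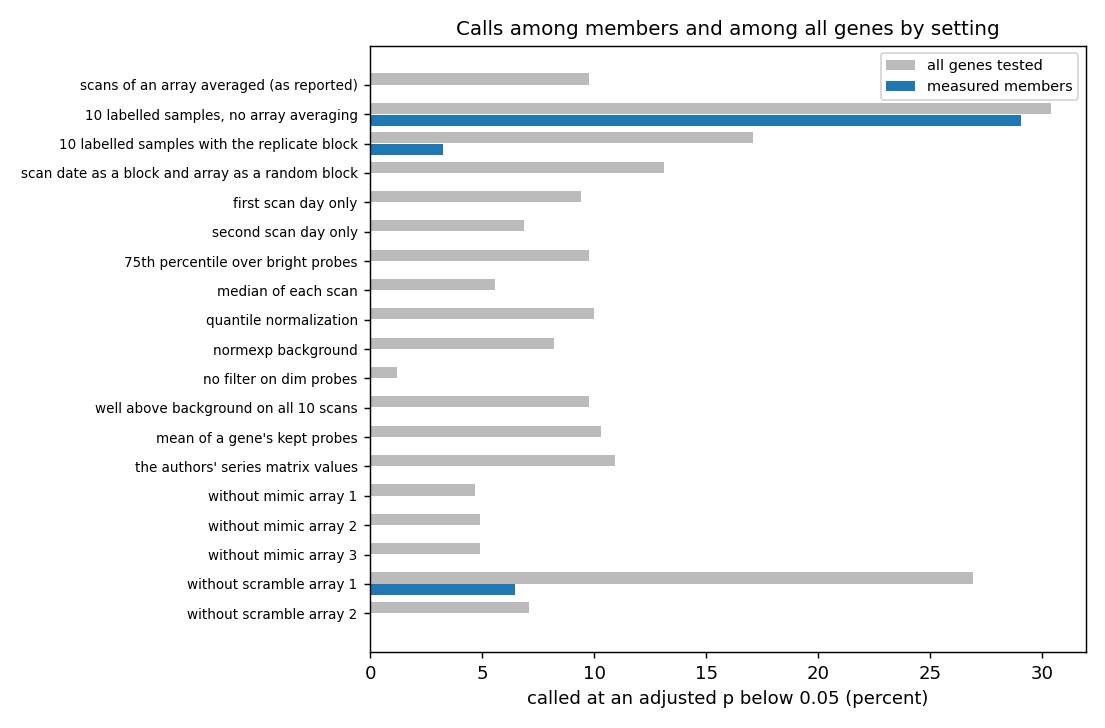
Percent of measured members and of all genes tested that were called at an adjusted p below 0.05 (limma), for the fit as reported and for each other setting; arrays are named as in the text. In 15 of the 18 other settings no member was called, and members reached 29.0% only where each scan counted as a sample, where all genes reached 30.4%.

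Other genes of the lysosome were read from lists of 118 further genes. Of these 93 were measured, with 1 called higher and 3 called lower (4.30% in all, against 9.74% of all genes tested) and a median difference of 0.02. Among 21 other hydrolases and activators Naaa rose. It encodes an amidase related to acid ceramidase that degrades N-acylethanolamines. Its signals were 2.39, 2.27 and 2.38 on the mimic arrays and 1.20 and 1.35 on the scramble arrays, a rise of 1.07 ± 0.19 (SE, 2.09-fold, adjusted p = 0.0116, limma), and all mimic arrays were above both scramble arrays. Without mimic array 1 or mimic array 3 the difference was 1.05 in each case and the call was lost, as it was with scaling to the scan median or no filter on dim probes. Its probe lies on chromosome 5, 92687671 to 92687730 in mm9.

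Among 20 genes that sort cargo to the lysosome 2 fell and none rose. Gga2, an adaptor that packs mannose 6-phosphate receptors into Golgi carriers, had signals of 2.05, 2.05 and 1.89 on the mimic arrays and 2.67 and 3.07 on the scramble arrays, a difference of −0.88 ± 0.21 (SE, adjusted p = 0.0376, limma). Vps33a, a subunit of the complexes that tether late endosomes and lysosomes, had signals of 0.25, 0.52 and 0.26 on the mimic arrays and 1.06 and 1.31 on the scramble arrays, a difference of −0.84 ± 0.21 (SE, adjusted p = 0.0409, limma). Among 15 other proton pump subunits Atp6v1e1, part of the peripheral stalk, fell alone, with signals of 3.88, 4.09 and 3.87 on the mimic arrays and 4.68 and 5.03 on the scramble arrays and a difference of −0.91 ± 0.21 (SE, adjusted p = 0.0326, limma). For all 3 the groups were separate, and each call was lost without any 1 of the mimic arrays, with scaling to the scan median, with no filter on dim probes, and without scramble array 2, where the differences were −0.68, −0.71 and −0.74. The call of Gga2 was also lost on the first scan day and that of Vps33a on the second. None of 18 other membrane and transport proteins, 15 regulators such as the Rag and Ragulator genes, and 4 cathepsin inhibitors passed the test (limma). Unadjusted p-values below 0.05 (limma) were reached by 1, 2 and 1 of them, against 25.3% of all genes tested.

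Cd68, the lysosomal glycoprotein of macrophages that the set leaves out, had signals of 4.93, 5.14 and 4.81 on the mimic arrays and 0.12 and 0.12 on the scramble arrays, a rise of 4.83 ± 0.20 (SE, 28.5-fold, adjusted p = 1.86e-05, limma). Its lowest mimic array lay more than 4 log2 units above its scramble arrays, a distance several times that of any member. Its relatives in the lysosomal membrane, Lamp1 and Lamp2, had 0.16 and 0.33. Of 11 macrophage and leukocyte markers on the array, Cd68 and Cd14 were called higher, while Ptprc, Adgre1, Lyz2, Tyrobp and Cd74 were never well above background. The linear levels of this list, summed with the 75th percentile of a scan as 1, were 51.7 to 57.3 on the mimic and 20.1 to 20.2 on the scramble arrays. Without Cd68 they were 22.0 to 23.6 and 19.0 to 19.1. Csf1r, the receptor of a macrophage growth factor, and Itgam, an integrin of myeloid cells, were well above background on all 10 scans and not called, with differences of 0.17 (adjusted p = 0.699, limma) and 0.15 (adjusted p = 0.679, limma). Fcer1g, well above background on 5 mimic and 2 scramble scans, had 0.56 and groups that did not overlap. It was not called (unadjusted p = 0.0286, adjusted p = 0.145, limma). All 5 measured markers of this list had differences above 0. For 8 osteoclast markers the sums were 16.5 to 18.2 and 4.62 to 5.46, and without Itgb3 they were 1.73 to 4.85 and 1.56 to 1.93. Itgb3 was called higher (limma). Nfatc1 (0.74, adjusted p = 0.206, limma) and Oscar (−0.11, adjusted p = 0.798, limma) were measured and not called. Acp5, Dcstamp, Ocstamp and Mmp9 were never well above background, and Calcr was on 2 mimic scans only. Of 7 myoblast markers 5 were measured, and 4 of them (Myod1, Des, Cdh15 and Itga7) were called lower (limma), with sums over the list of 227.1 to 240.8 on the mimic and 432.1 to 488.4 on the scramble arrays. Without Myod1 these sums were 223.8 to 236.6 and 406.2 to 440.7. Myod1, the factor that commits cells to muscle, was well above background on all 10 scans, and Pax7, a satellite cell marker, on none. Myf5 was so on 3 of 6 mimic and 0 of 4 scramble scans, too few to be measured. Of 3 adipocyte markers Pparg was called higher (limma), and Adipoq and Fabp4 were not well above background. Their sums were 18.2 to 22.3 on the mimic and 7.66 to 9.78 on the scramble arrays. Without Pparg they were 0.17 to 0.33 and 0.35 to 0.38. Of 3 fibroblast markers none was called (limma), and Dcn had an unadjusted p below 0.05 (limma). Pdgfra had a difference of −0.14 (adjusted p = 0.731, limma), and Thy1 was never well above background. The fibroblast sums were 150.3 to 163.8 and 71.6 to 113.9, and without Dcn 0.59 to 0.66 and 0.59 to 0.75. The part of these markers in the members' values was not tested.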

How the data were processed

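Each sample has 1 deposited Agilent scanner file of spot intensities on a linear scale. Per the file headers these were made with Feature Extraction 12.0.0.7, while the submitters' processing notes name 10.7.3.1, and the build is mm9. The deposited series matrix also holds intensities, with a between-array step not given in the sources used here; its columns track the log2 signals of their scans at r of at least 0.996 and have medians of 177.5 to 356.3.

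Non-uniform and population outlier spots were left out, and log2 processed signals were averaged per probe and reduced by the 75th percentile of the scan over non-control probes. A probe was kept when well above background on at least 4 of 10 scans (at least 0.5 of its spots), which left 17455 probes, and the brightest kept probe stood for its gene. RefSeq tables of GRCm38.p6 gave current gene names (28026 probes by accession, 3418 by symbol, 295 by synonym). Scans of 1 array position were averaged. The test was limma 3.58.1 (lmFit, then eBayes; R 4.3.3), with 5.26 prior and 3 residual degrees of freedom, and it was tested on simulated data. Alternatives in scaling, filter, background, probe choice, scan day, blocks and left-out arrays are in the closing section. No member spot was saturated. The number of arrays limits the precision.

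The members, lists and settings were chosen with earlier results of these data known. Named are all members, with values per array for the 12 of smallest p, up to 6 called genes per other lysosome list, Cd68, and marker genes; array values of Lamp1, Lamp2, Idua, Ids, Mcoln1 and the pump subunits were added after they were seen.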

Additional observations from a re-analysis of the deposited data

How the results depend on the processing

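No member was called in the fit as reported, nor in 15 of the 18 other settings, and 17 of 31 members kept the sign of their difference in all 18. All settings drew on the same scans, and the share of all genes that kept their sign was not computed. With the 10 labelled samples as separate samples 4154 genes were called, 6 members higher and 3 lower, and 13 other lysosome genes higher and 15 lower. With the replicate block 2336 genes were called, and 1 member (Lipa, 0.67, limma adjusted p = 0.0394) and 4 other lysosome genes were higher. Whether the replicate numbers pair the samples is not settled. Deviations of same-numbered samples correlated between −0.27 and 0.19. None of the 4 scramble samples correlated best with the mimic sample of its own number, but so few samples cannot exclude a pairing. Where the percentile came from the probes that every scan had well above background, the members' median was −0.066 and that of all genes −0.04, in place of 0.07 and 0.09, a shift of like size. Under that scaling, on the first scan day, with the date and array blocks, with normexp background and where the kept probes of each gene were averaged, 2 other lysosome genes were higher. Scaling to the scan median called 761 genes and no filter 407, and in both 0 other lysosome genes were called either way. Leaving out 1 array gave 641 to 3671 genes, 0 to 2 members higher, and 0 to 18 other lysosome genes higher and 0 to 15 lower, with each highest count without scramble array 1, where the lone scramble array is assumed to vary like the mimic arrays. The cause of these changes was not tested. The series matrix leaves dim probes blank, so some arrays rest on 1 scan there; it called no member. In the fit as reported no difference under 1.67-fold was called in any gene, and 6 members were too dim to measure.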
